A study of Rattus norvegicus with 70 samples.

Results

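The genes described here encode the epidermal growth factor (EGF) receptor family and the ligands that bind it. They were taken by symbol: 6 ligands (Areg, Hbegf, Ereg, Tgfa, Btc and Egf) and 3 receptors (Egfr, Erbb2 and Erbb3). All 9 symbols were found among the 19441 genes of each of the 6 tissue tables. Male rats of the Wistar-Kyoto (WKY) strain had given the RNA, which was sequenced from muscle, adipose tissue, hypothalamus, adrenal gland, liver and lung. One group was exposed to air and the other to 0.8 ppm ozone for 4 h, and the labels give no other treatment, allele or age. Lung, liver and hypothalamus each had 6 libraries per exposure, adipose tissue had 5 per exposure, adrenal gland had 5 for air and 6 for ozone, and muscle had 6 for air and 5 for ozone. Library numbers ended at 12 for air and began at 13 for ozone, so any order of handling that follows the numbers cannot be told apart from ozone.

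EGF family ligands are made as membrane-anchored precursors that metalloproteases such as ADAM17 cut free. Amphiregulin, epiregulin, betacellulin, heparin-binding EGF-like growth factor, transforming growth factor alpha and EGF itself bind EGFR, and some of them also bind ERBB4. A bound receptor pairs with itself or with another member of the family, chiefly ERBB2, which has no known ligand, or ERBB3, which binds neuregulins and has weak kinase activity of its own. The pair then drives the RAS-ERK and PI3K-AKT pathways. In lung epithelium the family is known for its part in repair after injury, in liver for hepatocyte growth, and in peripheral nerve ERBB3 is the neuregulin receptor of Schwann cells.

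Start-site sequences are shown for 3 ligands whose ozone values are described below and that differ in base composition: Tgfa, which rose in lung, Egf, which rose in liver and muscle, and Areg, which is listed almost exclusively in lung. They are the 250 bases before the annotated start, written 5′ to 3′ on the gene's own strand, from RefSeq on the GRCr8 rat assembly. Capitals mark matches, on either strand, to 4 motifs that were searched: the cAMP response element TGACGTCA, the AP-1 site TGANTCA, the GC box GGGCGG and the TATA box TATAAA.
Tgfa promoter: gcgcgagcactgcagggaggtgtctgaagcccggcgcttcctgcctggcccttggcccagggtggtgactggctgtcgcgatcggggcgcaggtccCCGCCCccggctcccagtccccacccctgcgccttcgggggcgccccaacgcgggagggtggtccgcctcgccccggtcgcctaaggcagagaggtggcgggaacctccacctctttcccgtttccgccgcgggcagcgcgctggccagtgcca
Areg promoter: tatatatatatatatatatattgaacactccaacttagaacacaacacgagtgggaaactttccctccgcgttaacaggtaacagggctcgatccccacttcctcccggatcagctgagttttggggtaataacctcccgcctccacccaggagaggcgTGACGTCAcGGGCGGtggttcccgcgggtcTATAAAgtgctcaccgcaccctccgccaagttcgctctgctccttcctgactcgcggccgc
Egf promoter: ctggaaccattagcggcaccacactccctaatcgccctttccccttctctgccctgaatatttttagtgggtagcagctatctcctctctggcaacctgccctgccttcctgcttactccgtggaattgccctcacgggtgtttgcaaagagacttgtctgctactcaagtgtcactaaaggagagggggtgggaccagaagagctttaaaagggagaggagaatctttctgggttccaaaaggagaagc
The Tgfa window lies at chr4:120175469-120175718 on the plus strand, is 74.4% G and C, and holds 1 GC box, read on the opposite strand. Its first base lies 154 bases before the start. The Areg window lies at chr14:17265642-17265891 on the minus strand and holds a cAMP response element, a GC box and a TATA box, whose first bases lie 91, 82 and 61 bases before the start. The Egf window lies at chr2:220976298-220976547 on the minus strand, is 51.6% G and C, and holds none of the 4 motifs. Among 33469 rat promoter windows of the same length, 1.59% hold the cAMP response element, 6.34% the AP-1 site, 30.5% the GC box and 12.9% the TATA box, and the median share of G and C is 51.2%. Sequences were matched for 7 of the 9 genes. Of those 7, none holds the AP-1 site, Areg alone holds the cAMP response element or the TATA box, and Btc, Egfr and Erbb2 hold 1 GC box each. These matches describe letters and not binding. Ereg and Erbb3 were not matched.

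The values are read counts divided by 1 size factor per library, called deposited values here, and reads per library ran from 8854272 to 18848151. A gene was tested within a tissue where its mean deposited value was at least 10, on the log2(value + 1) scale with limma, and adjusted p-values are Benjamini-Hochberg values over all genes tested in that tissue. A gene is said to have risen or fallen where its adjusted p was under 0.05, and fold changes are log2 ozone against air ± standard error. The scale understates changes of low genes. The labels do not state that each library came from a separate rat, so the p-values rest on spread among libraries, which may be technical. In bulk tissue, fewer cells of a type and less RNA per cell cannot be told apart. Defining genes of each labelled tissue were present where they should be, and some were also read elsewhere. Summed lung markers ran from 15370 to 29020 CPM (counts scaled to a common library total) in lung and to at most 643.6 elsewhere. Summed hypothalamic neuropeptide genes ran from 537 to 983 in hypothalamus and to at most 8.26 elsewhere. Summed liver markers reached 2145 in adrenal gland, 1761 in hypothalamus and 1415 in lung, beside at least 101320 in liver. Summed muscle fibre genes reached 4352 in adipose tissue, beside at least 24818 in muscle. The part of such transcripts in the values of the EGF family genes was not tested.

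Of the 54 combinations of gene and tissue, 41 could be tested and 13 could not. Areg and Ereg were under the limit in every tissue but lung, Btc in adrenal gland and muscle, and Tgfa in muscle. Among the 41 tested, 8 passed, of which 5 rose and 3 fell. That share of 19.5% lay near the 16.2% that passed among all 83939 tests of a gene in a tissue. The plot of fold changes by tissue shows them together.

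**Figure D1:**
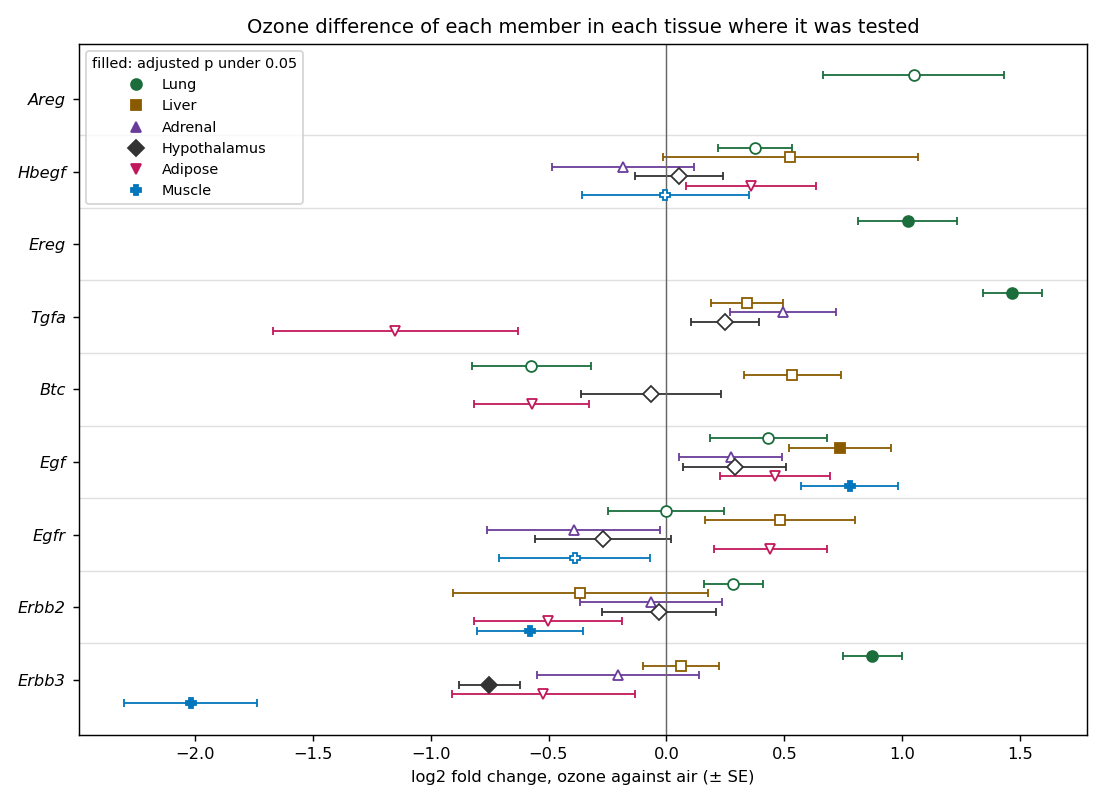
Log2 fold change of each of the 9 genes, ozone against air, in each tissue where it was tested. The horizontal axis is the log2 difference, bars are ± 1 standard error, colour and shape give the tissue, and filled symbols have an adjusted p under 0.05. The filled symbols at the right are Tgfa, Ereg and Erbb3 in lung and Egf in liver and muscle, and those at the left are Erbb3 in hypothalamus and muscle and Erbb2 in muscle.

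In lung, of the 9 genes, all tested, Tgfa, Ereg and Erbb3 rose after ozone and none fell, where 17.7% of all 14828 tested lung genes passed in either direction, 9.51% upward and 8.18% downward. Tgfa, which encodes transforming growth factor alpha, lay between 212 and 363 in the 6 air libraries (median 290) and between 715 and 880 in the 6 ozone libraries (median 772). The lowest ozone library thus held more Tgfa than the highest air library by a wide margin, and the groups did not overlap. The difference was 1.47 ± 0.12 on the log2 scale, a 2.76-fold rise (limma, adjusted p = 3.27e-06).

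Ereg, which encodes epiregulin, lay between 95.4 and 232 in air lung (median 116) and between 182 and 355 in ozone lung (median 266). The groups overlapped through a single air library, number 8, and 4 of the 6 ozone libraries lay above every air library. Ereg rose by 1.02 ± 0.21 (limma, adjusted p = 0.00384).

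Areg, the amphiregulin gene, ran from 24.0 to 169 in air (median 73.6) and from 105 to 188 in ozone (median 156). The air libraries were widely spread, and those numbered 1 and 10 reached the ozone range, so that only 1 ozone library lay above them all. The difference of 1.05 ± 0.38 was as large as that of Ereg but did not pass (limma, adjusted p = 0.0752). It passed when air 1 was left out (1.24, adjusted p = 0.0393), when air 10 was left out (1.29, adjusted p = 0.0183) and with weights per library (1.07, adjusted p = 0.0228).

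The other lung ligands differed less from their spread. Hbegf, the heparin-binding ligand, had medians of 242 in air and 309 in ozone (0.37 ± 0.16, limma adjusted p = 0.118). Egf itself had medians of 37.6 and 57.8 (0.43 ± 0.25, limma adjusted p = 0.254). It passed only when ozone 15, its lowest library, was left out (0.64, adjusted p = 0.0353). Btc, which encodes betacellulin, was the 1 ligand with a lower value after ozone, with medians of 13.9 and 10.6 (−0.57 ± 0.25, limma adjusted p = 0.136). It passed with weights per library (−0.76, adjusted p = 0.0434). The plot of lung values by library shows 5 ligands with higher medians after ozone and Btc with a lower one.

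Among the lung receptors, Erbb3 stood apart. It lay between 1196 and 1830 in air (median 1433) and between 2290 and 3174 in ozone (median 2635). All 6 ozone libraries were above all 6 air libraries. The rise was 0.87 ± 0.12, or 1.83-fold (limma, adjusted p = 0.000233). Egfr, the receptor that binds all 6 ligands, had medians of 231 in air and 199 in ozone with wide and overlapping ranges, 109 to 303 and 154 to 319. Its difference was −0.00 ± 0.25 (limma, adjusted p = 0.996). Erbb2, the partner receptor without a ligand, had medians of 465 and 594 (0.28 ± 0.13, limma adjusted p = 0.138). It passed with weights per library (0.37, adjusted p = 0.0255).

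**Figure D2:**
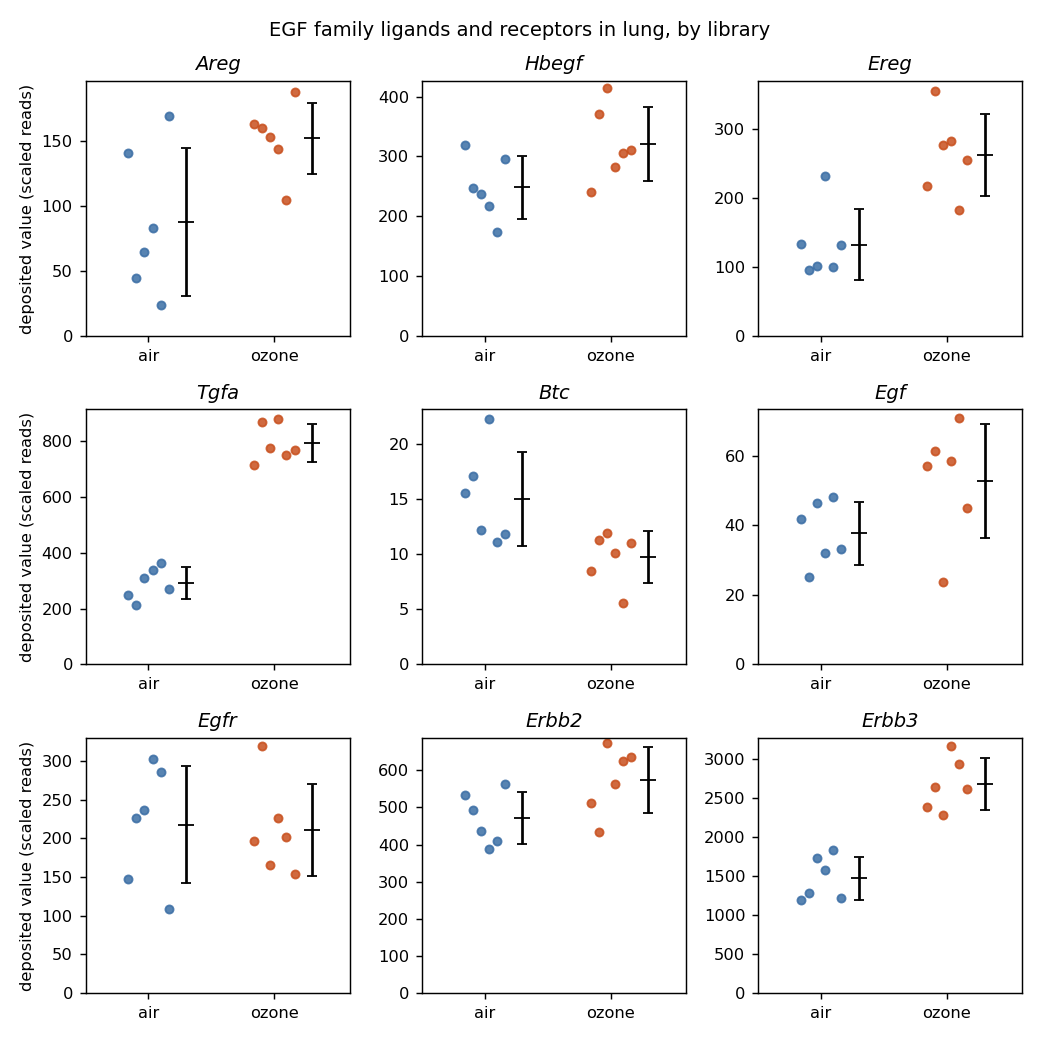
Deposited values (read counts divided by the library's size factor) of the 9 genes in lung, 1 point per library, 6 air and 6 ozone, each panel with its own axis from 0. The short horizontal line and bars beside the points are the mean ± SD. The air and ozone points are separate for Tgfa (air up to 363, ozone from 715) and for Erbb3 (air up to 1830, ozone from 2290) and overlap for the other 7 genes. How many of all lung genes have separate points was not counted.

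Markers of epithelium moved with these lung values. Of 6 epithelial markers, Epcam (0.36 ± 0.10), Cdh1 (0.29 ± 0.09) and Krt7 (1.06 ± 0.13) rose and none fell, where 9.51% of all tested lung genes rose. The summed deposited values of the 6 ran from 11655 to 17197 in air and from 16385 to 22250 in ozone, with a small overlap. The part of epithelial markers in the rises of Tgfa, Ereg and Erbb3 was not tested.

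In liver 1 of 7 tested genes passed, against 11.5% of all 12573 tested liver genes, 6.74% upward and 4.72% downward. Egf, whose precursor is known chiefly from salivary gland and kidney, lay between 124 and 294 in air liver (median 199) and between 215 and 401 in ozone liver (median 355). The lowest ozone library fell inside the air range and the other 5 lay above every air library. Egf rose by 0.74 ± 0.22 (limma, adjusted p = 0.0414), and the call was close to the limit: it was lost in 9 of the 12 fits that left out 1 library, with no filter on low genes (adjusted p = 0.0552), with edgeR's quasi-likelihood test on whole reads (0.69, adjusted p = 0.0558) and with scaling to the library total (0.69, adjusted p = 0.0875).

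The other liver ligands also had higher medians after ozone without passing. Tgfa had medians of 127 in air and 177 in ozone (0.34 ± 0.15, limma adjusted p = 0.188), and Btc 28.5 and 38.8 (0.53 ± 0.20, limma adjusted p = 0.122). Btc passed with weights per library (0.74, adjusted p = 0.0149). Hbegf was low, between 0.936 and 30.5 in air, and its difference of 0.53 ± 0.54 was no larger than its error. The receptors did not pass in liver either. Egfr, which hepatocytes carry at a high level, ran from 1330 to 4790 in air and from 1712 to 4658 in ozone, so its difference of 0.48 ± 0.32 lay within a wide spread (limma, adjusted p = 0.422). Erbb3 had medians of 3354 and 3738 (0.06 ± 0.16, limma adjusted p = 0.889), and Erbb2 was low in both groups, with medians of 13.3 and 9.18 (−0.37 ± 0.54, limma adjusted p = 0.782).

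In adrenal gland none of the 6 tested genes passed limma, where 18.6% of all 14026 tested adrenal genes did, 9.23% upward and 9.38% downward. By unadjusted p under 0.05 the count was 1, and it was 0 with edgeR and 0 with DESeq2. The 1 was Tgfa, with air values of 413, 309, 276, 448 and 311 and ozone values from 295 to 702 (median 535). Of the 6 ozone libraries 4 lay above every air library and number 19 lay among the lowest. The difference was 0.49 ± 0.22 (limma, adjusted p = 0.148), and it passed without ozone 19 (0.64, adjusted p = 0.0471) and with weights per library (0.57, adjusted p = 0.0263). Egf (0.27 ± 0.22), Hbegf (−0.18 ± 0.30), Egfr (−0.39 ± 0.37), Erbb2 (−0.06 ± 0.30) and Erbb3 (−0.21 ± 0.34) had differences near or within about 1 standard error. Ereg, under the limit for testing, was at 0 in 4 of 5 air libraries and above 0 in 5 of 6 ozone libraries, with deposited values up to 5.86. In a fit with no filter its difference was 1.37 ± 0.45 (limma, adjusted p = 0.0652). Ereg was highest in ozone 17, 19 and 20 (3.06, 5.86 and 3.74), the adrenal libraries with the most summed lung markers (1656, 2470 and 3974). Air 8, with 1022.5 of these markers, held no Ereg read. The part of lung markers in the adrenal Ereg values was not tested. Btc, also under the limit, ran from 2.25 to 9.24 in air and from 1.95 to 4.08 in ozone (−0.72 ± 0.33 with no filter, limma adjusted p = 0.179).

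In hypothalamus, where only 1.41% of all 15217 tested genes passed, 0.789% upward and 0.624% downward, Erbb3 was the 1 of 7 tested genes that passed, and it fell. It lay between 424 and 724 in air (median 594) and between 317 and 421 in ozone (median 354). Every ozone library was below every air library, although the highest ozone and the lowest air library almost met. How many of all hypothalamus genes have such separate groups was not counted. The fall of Erbb3 was −0.75 ± 0.13 on the log2 scale (limma, adjusted p = 0.01). With edgeR on whole reads, for which 5 air and 5 ozone libraries could be used, the difference was −0.75 and the call was lost (adjusted p = 0.0587).

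In brain, ERBB3 is known from cells of the oligodendrocyte lineage. The markers of myelin and Schwann cells Mbp, Pmp22 and Sox10 were measured beside hypothalamic Erbb3: none of the 3 passed, their median difference was 0.10, and their summed values ran from 45380 to 70279.9 in air and from 46016 to 75494 in ozone. Egfr (−0.27 ± 0.29), Btc (−0.06 ± 0.30), Erbb2 (−0.03 ± 0.24), Hbegf (0.05 ± 0.19) and Egf (0.29 ± 0.22) did not pass. Tgfa, with medians of 570 in air and 704 in ozone, did not pass there (0.25 ± 0.14, limma adjusted p = 0.449).

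In adipose tissue none of the 7 tested genes passed limma, where 7.32% of all 14252 tested adipose genes did, 3.87% upward and 3.45% downward. By unadjusted p under 0.05 the count was 2, Tgfa and Btc, and it was 0 with edgeR and 0 with DESeq2. Tgfa was 55.1, 120, 42.2, 69.5 and 29.8 in the air libraries and 16.8, 19.3, 28.7, 91.6 and 10.9 in the ozone libraries. The ozone library numbered 22 was high and the other 4 lay below every air library. The difference was −1.15 ± 0.52 (limma, adjusted p = 0.223), and without ozone 22 it was −1.61 and passed (adjusted p = 0.0301).

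Ozone 22 of adipose tissue also stood apart in other genes. Its Erbb2 was 160.3 where the other ozone libraries held 49.9 to 67.9, and its Hbegf was 212 where they held 72.9 to 97.5. Its summed markers of myelin and Schwann cells were 14175, against 3807 to 6121 in the other 9 adipose libraries. Summed epithelial markers were highest in ozone 22 (1663), air 5 (1633) and air 9 (675), and Tgfa and Erbb2 were highest in the same 3 libraries. Their part in the adipose values was not tested. Btc was 65.9, 72.2, 95.7, 57.4 and 76.2 in air adipose tissue and 42.1, 45.4, 80.7, 34.3 and 50.1 after ozone. Of the ozone libraries 4 lay below all air libraries, and the difference was −0.57 ± 0.24 (limma, adjusted p = 0.192). The receptors Egfr (0.44 ± 0.24), Erbb2 (−0.50 ± 0.31) and Erbb3 (−0.52 ± 0.39) did not pass, nor did the ligand Hbegf (0.36 ± 0.28). Egf was 68.5, 45.8, 48.4, 44.3 and 44.7 in air and 78.2, 84.0, 54.1, 46.8 and 91.4 after ozone. Of the ozone libraries 3 lay above every air library, and the difference was 0.46 ± 0.23 (limma, adjusted p = 0.278).

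In muscle 3 of 5 tested genes passed: Egf rose, and Erbb3 and Erbb2 fell. Muscle was also the tissue in which 43.7% of all 13043 tested genes passed, 21.6% upward and 22.1% downward. Erbb3 lay between 92.6 and 190.3 in air muscle (median 139) and was 49.1, 51.6, 18.4, 29.8 and 25.7 in the ozone libraries. All 5 ozone libraries lay below all 6 air libraries. How many of all muscle genes have groups that do not overlap was not counted. The fall of Erbb3 was −2.02 ± 0.28 (limma, adjusted p = 0.000149), to 0.247 of the air level.

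Erbb2 lay between 41.9 and 73.5 in air muscle (median 56.5) and was 39.1, 54.6, 23.8, 36.4 and 35.3 after ozone. Of these, 4 lay below every air library and number 15 lay within the air range. The fall of −0.58 ± 0.22 was near the limit (limma, adjusted p = 0.0487), and it was lost in 8 of the 11 fits that left out 1 library and with no filter on low genes (adjusted p = 0.0622). Egfr ran from 45.4 to 153 in air and was between 32.4 and 107 after ozone (−0.39 ± 0.32, limma adjusted p = 0.341). It passed with edgeR (−0.84, adjusted p = 0.0499) and DESeq2 (−0.82, adjusted p = 0.0331) on the whole reads of the libraries that could be used. Those fits lacked air 3, the air library with the least Egfr (45.4), and ozone 15, the ozone library with the most (107). Method and libraries thus changed together.

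Egf rose in muscle. It lay between 144 and 345 in air (median 226) and was 478, 333, 272, 450.1 and 416 after ozone. Of the 5 ozone libraries 3 lay above every air library, and the rise was 0.78 ± 0.21 (limma, adjusted p = 0.00835). Scaled to the library total, under which the median of all muscle genes was −0.30, it was 0.45 and did not pass (adjusted p = 0.0835). Hbegf, with medians of 232 and 237, did not differ beyond its error (−0.01 ± 0.35).

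Tgfa, below the limit for testing in muscle, was between 6.55 and 22.6 in air (median 13.98) and 2.23, 4.05, 0, 1.1 and 0 after ozone. All 5 ozone libraries lay below all 6 air libraries, at levels of a few reads, and the share of all muscle genes that separate so was not counted. In a fit with no filter the difference of Tgfa was −2.77 ± 0.46 (limma, adjusted p = 0.000538).

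Markers of other cell types moved with muscle Erbb3. Both tested markers of myelin and Schwann cells fell, Mbp by −3.21 ± 0.53 and Pmp22 by −1.84 ± 0.24, and Sox10 was under the limit for testing. The summed values of the 3 ran from 826 to 1936 in air and from 216 to 553 in ozone, without overlap. All 4 tested fibroblast markers and 3 of 4 endothelial markers fell too, and of 4 tested muscle fibre genes Acta1, Ckm and Tnnt3 rose. Among all tested muscle genes 22.1% fell and 21.6% rose. The part of these markers in the falls of Erbb3, Erbb2 and Tgfa was not tested.

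**Figure D3:**
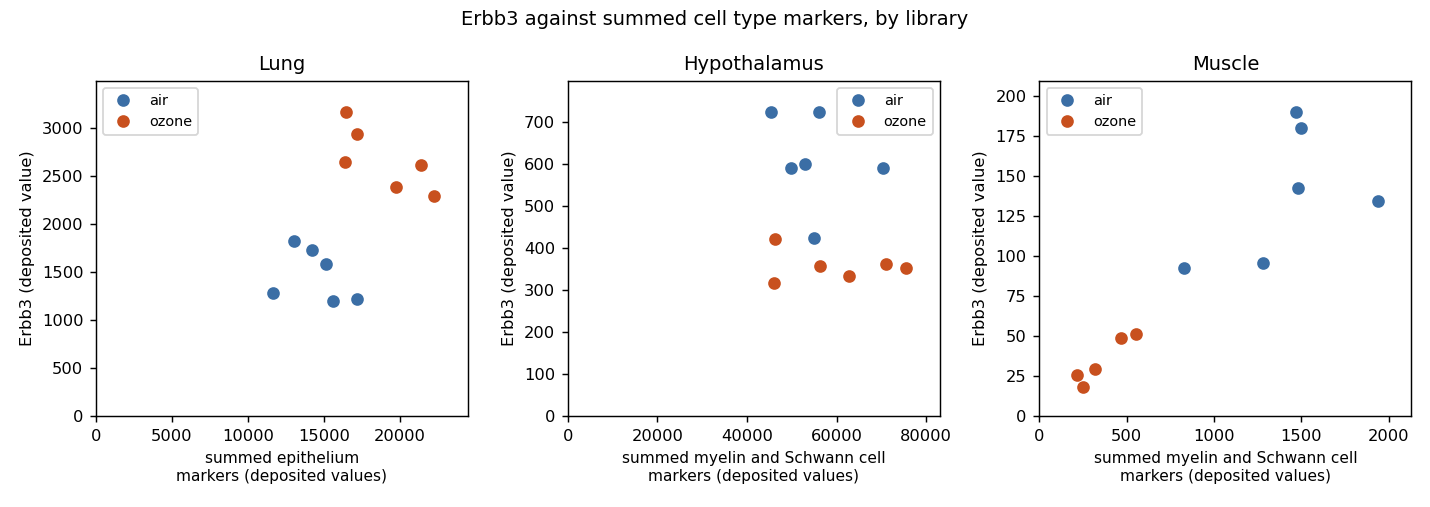
Deposited value of Erbb3 (vertical axis) against the summed deposited values of a marker list (horizontal axis) in lung, hypothalamus and muscle, 1 point per library, air in blue and ozone in orange. The lists are 6 epithelial markers in lung and 3 markers of myelin and Schwann cells in hypothalamus and muscle. In hypothalamus the marker ranges of the groups overlap and Erbb3 is lower in all ozone libraries, and in muscle both are lower in all ozone libraries.

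Whether a gene's ozone difference itself differed between tissues was tested in 1 fit over all 68 libraries, with an F test of the 5 terms of tissue by exposure over 15908 genes, of which 35.8% passed. Of the 9 genes 3 passed: Tgfa (limma F test, adjusted p = 9.83e-11), Erbb3 (3.86e-07) and Ereg (0.0426). Areg (0.0987), Btc (0.0813), Egfr (0.345), Erbb2 (0.575), Egf (0.610) and Hbegf (0.786) did not. Ereg entered this test through its lung level alone and was under the limit for testing in the other 5 tissues, so its value sets lung beside levels near 0 and carries no statement on those tissues. With edgeR on whole reads Ereg did not pass (adjusted p = 0.127) and Btc did (0.0422).

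Tgfa in lung exceeded the mean ozone difference of the other 5 tissues by 2.03 ± 0.34 (limma, adjusted p = 3.74e-05), and Erbb3 in lung by 1.56 ± 0.29 (adjusted p = 0.000244), where 3.26% of all genes passed. For Tgfa the other 5 include muscle, where it was under the limit and its difference with no filter was −2.77. Within lung the rise of Tgfa was 1.47. For Erbb3 the other 5 include its falls in muscle (−2.02) and hypothalamus (−0.75), and its rise within lung was 0.87. In muscle Tgfa, there under the limit for testing by itself, lay below the mean of the other 5 tissues by −3.05 ± 0.35 (adjusted p = 5.34e-10) and Erbb3 by −1.91 ± 0.30 (adjusted p = 1.19e-06), where 30.5% of all genes passed. In liver Btc lay above the mean of the other 5 tissues by 0.96 ± 0.31 (limma, adjusted p = 0.0437), where 7.09% passed. For Btc the other 5 include adrenal gland and muscle, where it was under the limit for testing. Its differences there with no filter were −0.72 and −0.22. Within liver itself the difference of Btc was 0.53 and did not pass (limma, adjusted p = 0.122). Erbb3 in hypothalamus, which fell within its own tissue, lay below the mean of the other 5 without passing (−0.39 ± 0.29, limma adjusted p = 0.661), where 1.39% of all genes passed. That mean includes muscle, where Erbb3 fell by −2.02. In adipose tissue, where 3.73% passed, Tgfa lay below the mean of the others without passing (−1.10 ± 0.36, adjusted p = 0.0710). For Tgfa and Erbb3 the lung and muscle libraries moved in opposite directions, as the plot of both genes by tissue shows.

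**Figure D4:**
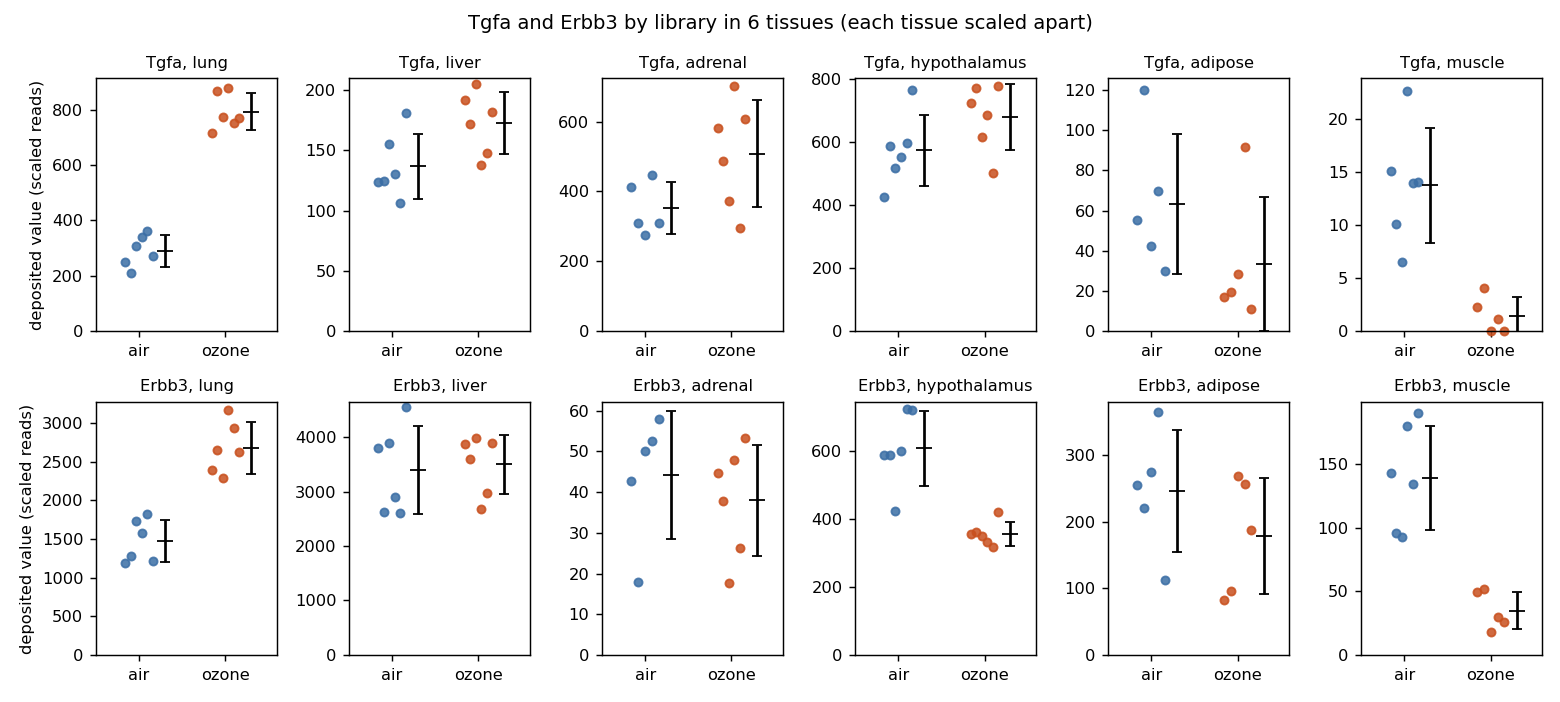
Deposited values of Tgfa (top) and Erbb3 (bottom) in the 6 tissues, 1 point per library, air in blue and ozone in orange, with the mean ± SD beside the points. Each tissue was scaled as a separate table and has its own axis from 0, so heights compare groups within a panel only. Ozone points lie above all air points for both genes in lung and below all air points for both genes in muscle, and for Erbb3 also in hypothalamus. How many of all genes have separate points in these tissues was not counted.

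Egf was the 1 member tested in all 6 tissues whose difference was positive in each, from 0.27 in adrenal gland to 0.78 in muscle, and it stayed positive in every alternative fit of each tissue. It passed in 2 of the 6. Hbegf was tested in all 6 tissues and passed in none, with differences from −0.18 in adrenal gland to 0.53 in liver. Egfr was tested in all 6 and passed in none with limma.

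Levels of the 9 genes in air libraries of the 6 tissues are given in CPM as mean ± SD over libraries, as a description, because each tissue was normalised apart, and levels of different genes are not compared, since no transcript lengths were used. A count of 3 reads, taken as the limit of detection, corresponds to between 0.159 and 0.339 CPM.

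Areg was highest in lung (7.32 ± 4.81), and its mean elsewhere was 0.155 or less, under that limit, with no read in any adrenal air library. Ereg was likewise highest in lung (10.9 ± 4.31) with means of 0.0787 or less elsewhere. The ranges of both genes in lung lay above those of every other tissue, and the other 5 tissues could not be ranked. Hbegf was highest in lung (20.6 ± 4.77) and muscle (19.5 ± 11.0), which overlapped, followed by hypothalamus (6.80 ± 1.47) and adipose tissue (5.35 ± 0.956), then adrenal gland (2.67 ± 1.28) and liver (0.891 ± 0.747).

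Tgfa was highest in hypothalamus (48.7 ± 9.83), whose range overlapped that of adrenal gland (33.5 ± 8.14), which in turn overlapped lung (24.0 ± 4.49). Liver (9.55 ± 2.03), adipose tissue (4.26 ± 2.44) and muscle (0.928 ± 0.421) followed. Btc was highest in adipose tissue (4.90 ± 0.927), above hypothalamus (2.10 ± 0.416), liver (1.95 ± 0.519) and lung (1.24 ± 0.353), whose ranges ran into each other, and lowest in muscle (0.129 ± 0.112). Egf was highest in muscle (15.3 ± 4.11) and liver (14.7 ± 5.14), the tissues in which it rose after ozone, and those did not differ beyond their spread. It lay between 2.28 and 3.51 on average in the other 4.

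Among receptors, Egfr was highest in liver (164 ± 95.7), above lung (17.9 ± 6.07) and adipose tissue (17.0 ± 4.54), which overlapped, and lowest in adrenal gland (4.40 ± 2.06). Erbb2 was highest in lung (39.0 ± 6.36), above adipose tissue (7.02 ± 2.21) and hypothalamus (6.10 ± 1.04), and lowest in liver (0.915 ± 0.590), the tissue with the most Egfr and Erbb3. Erbb3 was highest in liver (238 ± 63.9), then lung (122 ± 21.5), then hypothalamus (51.5 ± 9.64), and these 3 ranges did not overlap. Adipose tissue (16.4 ± 6.44) and muscle (9.40 ± 3.21) overlapped, and adrenal gland was lowest (4.17 ± 1.45).

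**Figure D5:**
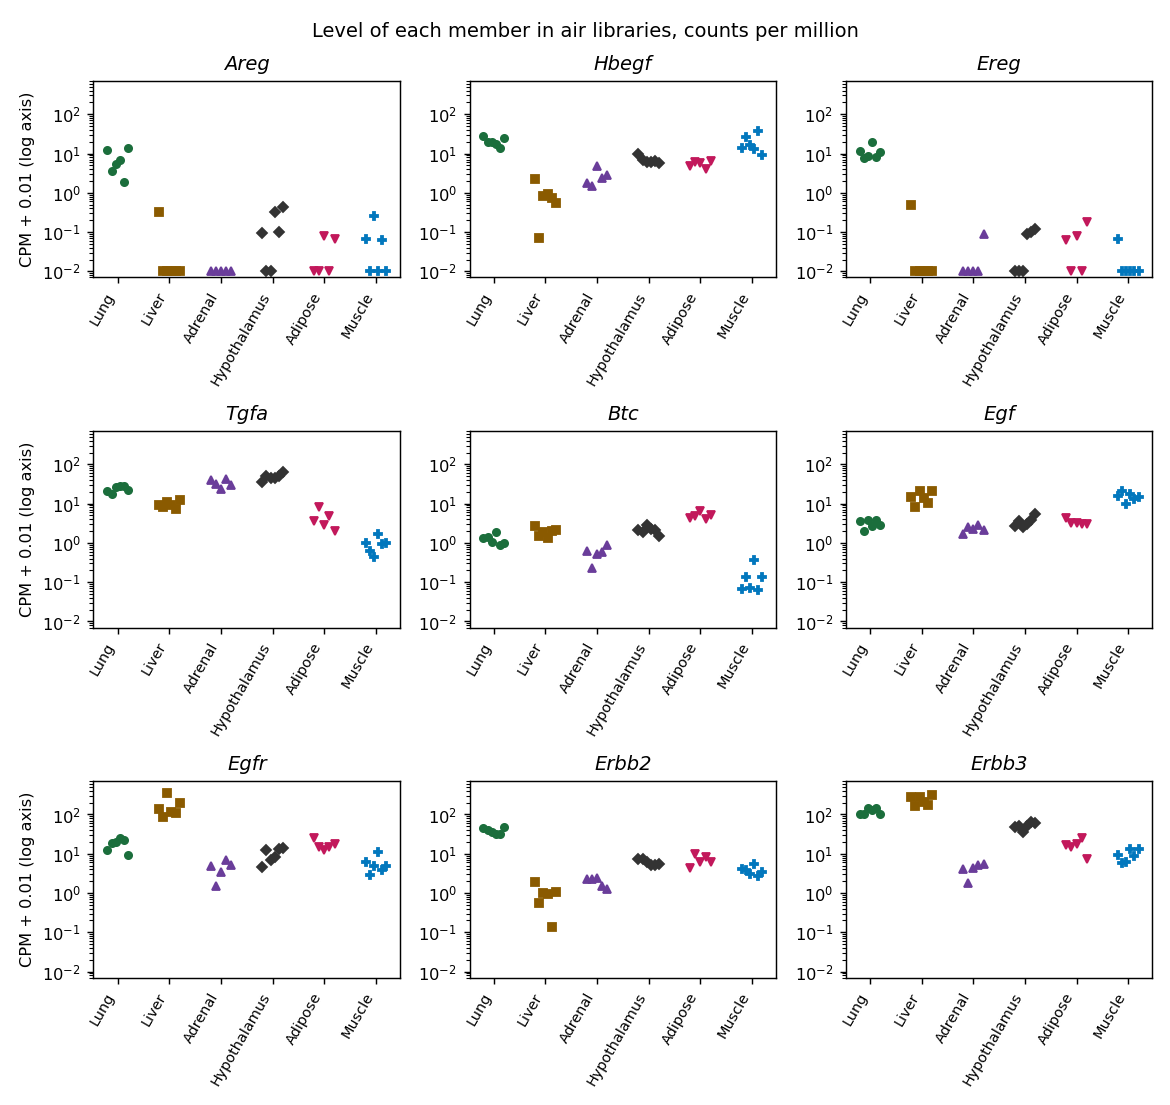
Level of each gene in the air libraries of the 6 tissues, 1 point per library, in CPM on a log axis, with 0.01 added so that libraries with no read appear at the bottom. Areg and Ereg are well above the other tissues in lung, Egfr and Erbb3 are highest in liver, and Erbb2 is highest in lung and lowest in liver.

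The genes with the most similar pattern were found by Pearson r over the 12 means of tissue and exposure, as a description, with points that share tissues. They were Cnga3 (r = 0.992) and Arhgef38 (0.985) for Areg, Liph (0.990) and Ager (0.987) for Ereg, and Ovol1 (0.983) and Tgfb2 (0.971) for Hbegf. For Tgfa they were Fzd5 (0.969) and Cacna1d (0.957), for Btc Clmn (0.981) and Psen2 (0.970), and for Egf LOC103691699 (0.984) and Slc37a4 (0.964). For Egfr they were St6gal1 (0.980) and Tmem37 (0.979), for Erbb2 Unc13b (0.992) and Pdpn (0.988), and for Erbb3 Aldh1a7 (0.954) and P2rx7 (0.952). Among the 9 genes themselves the closest pair was Areg and Ereg (0.950), both of which are near 0 in 5 of the 6 tissues, and Areg, Hbegf and Ereg had r of 0.827, 0.814 and 0.788 with Erbb2. Egfr and Erbb3, both highest in liver, had r = 0.803.

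The rest of the pathway was read through a list of 56 genes. Of 51 tested in lung, 12 rose and 1 fell, or 25.5% beside 17.7% of all lung genes, with a median difference of 0.15 against 0.00 for all genes. Among feedback inhibitors of the receptors, Errfi1, which encodes MIG6, a protein that binds and blocks the EGFR kinase, rose from 1610 ± 139 to 4880 ± 843 (1.59 ± 0.11, limma adjusted p = 1.01e-06). Spry1, an inhibitor of RAS-ERK signalling, rose by 0.60 ± 0.08 (adjusted p = 0.000145). Of 9 tested transcripts known to respond to ERK, 5 rose and none fell, with a median of 1.19, among them Myc (1.17 ± 0.13, adjusted p = 2.61e-05) and Plaur, the urokinase receptor gene (1.45 ± 0.16, adjusted p = 3.23e-05). Of 18 adaptors and effectors 2 rose, and of 16 feedback inhibitors and turnover genes 3 rose, where 9.51% of all lung genes rose.

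In the other tissues the share of the list that passed is set beside that of all genes, and no difference between tissues was tested. In liver 4 of 46 rose and 4 fell, or 17.4% beside 11.5% of all genes, with a median of 0.02. Dusp6, a phosphatase of ERK, fell from 1306 ± 689 to 160 ± 41.2 (−2.88 ± 0.33, limma adjusted p = 4.59e-05), and Lrig1, which promotes receptor degradation, fell by −0.82 ± 0.14. Stat3, a transcription factor downstream of the receptors and of cytokines, rose there by 0.91 ± 0.12. In adrenal gland 9 of 50 rose and 2 fell, or 22.0% beside 18.6%. Nrg1, the neuregulin that binds ERBB3 and ERBB4, rose from 9.80 ± 2.81 to 107 ± 32.9 (3.30 ± 0.27, limma adjusted p = 1.03e-05). Fosl1 rose by 2.57 ± 0.28 and Stat3 by 1.03 ± 0.15, while Usp8, a deubiquitinase that acts on internalised receptors, fell by −0.69 ± 0.11.

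In hypothalamus 1 of 53 passed, or 1.9% beside 1.41%: Adam17, which fell (−0.44 ± 0.10, limma adjusted p = 0.0385). In adipose tissue 4 of 49 rose and 1 fell, or 10.2% beside 7.32%. Errfi1 rose from 2069 ± 490.5 to 7004 ± 1877 (1.74 ± 0.21, limma adjusted p = 0.000624), Cblb, a ubiquitin ligase, by 1.11 ± 0.16 and Myc by 0.84 ± 0.16, and Lrig1 fell by −1.26 ± 0.20. In muscle 9 of 47 rose and 14 fell, or 48.9% beside 43.7%. Errfi1 rose from 923 ± 401 to 4556 ± 1172 (2.37 ± 0.26, limma adjusted p = 3.61e-05) and Hras by 1.54 ± 0.22, while Dusp6 fell by −1.42 ± 0.19 and Phlda1 by −1.57 ± 0.25. Of 8 tested ERK-responsive transcripts in muscle 4 fell and none rose, with a median of −1.37.

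A pair of these genes is followed across tissues, chosen after their values were seen. Errfi1 rose in lung, adipose tissue and muscle as above and in liver (0.60 ± 0.18, limma adjusted p = 0.0475), and did not pass in hypothalamus (0.65 ± 0.21, adjusted p = 0.167) or adrenal gland (0.15 ± 0.16, adjusted p = 0.589). Adam17, which encodes the protease that releases several of the ligands, fell in lung (−0.39 ± 0.08, limma adjusted p = 0.00238), liver (−0.50 ± 0.10, adjusted p = 0.00372), hypothalamus and muscle (−0.60 ± 0.10, adjusted p = 0.000618). It did not pass in adrenal gland (−0.29 ± 0.10, adjusted p = 0.0554) or adipose tissue (−0.37 ± 0.12, adjusted p = 0.0794). In lung, 2 genes of the proteins that carry ADAM17 to the cell surface rose, Rhbdf1 (0.41 ± 0.11) and Rhbdf2 (0.35 ± 0.11).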

How the data were processed

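Gene expression was measured by RNA-seq in 6 rat tissues after air or ozone. Per the labels' protocols, a Zymo kit was used for RNA of adrenal gland and hypothalamus and Qiagen kits for the other 4 tissues, and mRNA libraries were sequenced on a NextSeq instrument. Partek, DESeq2 and the rn6 build are named, without versions, per the submitters' processing notes. For the aligner, the counting, its strand setting and the annotation no name is given in the sources used here. Genes that overlap another on the opposite strand are uncertain. The authors deposited 1 table per tissue whose values are a signal, namely counts of reads over a size factor for each library. The values themselves show this: 100% of values above 0 were whole multiples of 1 step within a tolerance of 0.01. Of 70 labelled libraries 68 had a column, and muscle ozone 17 and adrenal air 7 are not analysed here. Each table held 19465 entries, and 24 with dates for names were dropped. Within groups no library was identical to another. Chi-square per degree of freedom was at least 9.26 between libraries of a group whose whole reads could be checked. Libraries of different groups were not compared.

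Values were tested as log2(deposited value + 1) with limma 3.58.1 in R 4.3.3 (trend and robust), ozone against air in each tissue apart, for genes with a mean of at least 10. Differences between tissues were tested over all libraries with tissue as a term. Alternatives were a pseudocount of 4, no filter, a minimum of 50, weights per library, each library left out, edgeR 4.0.16 (quasi-likelihood, TMM) and DESeq2 1.42.0 on recovered whole reads, and, added after the data were seen, scaling to the library total. Of the columns, 62 entered the count tests. The other 6 had a size factor so near 1 that whole reads could not be checked, and were kept out of them: air 1 and ozone 16 of hypothalamus, air 2 and ozone 16 of lung, and air 3 and ozone 15 of muscle. The 9 genes, the pathway list and the marker lists were chosen with earlier results of these data known, and 2 genes of the list of myelin and Schwann cell markers are not reported here and enter no sum. Each of the 9 genes is named where it was tested, and from the pathway list up to 4 genes with the lowest adjusted p per tissue. The calculation was tested on simulated data.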

Additional observations from a re-analysis of the deposited data

Results flagged for a closer look

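In 8 of 82 groups of 5 or 6 libraries, 1 library lay far from the others of its gene, tissue and exposure by Dixon's test. About 1 in 20 would be flagged by chance if values were normally distributed and groups independent. The test used untransformed values, every flagged library was the highest of its group, and the same library recurs. The 8 therefore cannot be set against that rate. In adipose tissue ozone 22 was high in Hbegf (deposited value 212, the others 72.9 to 97.5), Tgfa (91.6, the others 10.9 to 28.7) and Erbb2 (160.3, the others 49.9 to 67.9). Air 2 of adipose tissue was high in Egf (68.5, the others 44.3 to 48.4), and its summed muscle fibre genes were 68481, the highest of the adipose libraries. In hypothalamus Hbegf was high in air 1 (118, the others 65.8 to 79.4) and in ozone 15 (131, the others 63.7 to 81.2). Lung air 8 was high in Ereg (232, the others 95.4 to 133), and muscle ozone 16 was high in Hbegf (459, the others 185 to 254).

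The ozone difference of 3 genes differed between tissues by the F test of tissue by exposure: Tgfa (limma, adjusted p = 9.83e-11), Erbb3 (adjusted p = 3.86e-07) and Ereg (adjusted p = 0.0426). Of all 15908 genes in that test 35.8% passed, so passing it was common among genes at large. For Tgfa and Erbb3, lung lay above and muscle below the mean of the other tissues. In muscle Tgfa was under the limit for testing, and its low muscle values enter the mean set against lung. Ereg entered the test only through its lung level and was under the limit for testing in the other 5 tissues, so its value is no statement on those tissues.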

How the results depend on the processing

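Over the alternatives, 35 of 740 comparisons of a gene's call with the reported one changed it, and 0 called differences changed sign. Tgfa, Ereg and Erbb3 in lung and Erbb3 in muscle passed in every alternative that gave a value. With weights per library the genes that passed were 6 in lung (main 3), 2 in liver (main 1) and 1 in adrenal gland (main 0). The liver count was 0 with no filter, with edgeR and with scaling to the library total, and the hypothalamus count was 0 with edgeR. Leaving out 1 library gave lung 3 to 4, muscle 2 to 3, hypothalamus always 1, and liver, adrenal gland and adipose tissue 0 to 1 each. The test between tissues, with 3 genes, gave 2 to 4 when a library was left out and 5 with a pseudocount of 4 (Areg, Ereg, Tgfa, Btc and Erbb3). It gave 1 (Erbb3) when a mean of at least 10 was asked in each table. That filter took Areg, Ereg, Tgfa and Btc out of the test, so Tgfa and Ereg were not tested there and did not fail. Causes of the other changes were not tested. With a replicate block of equal numbers across tissues the test between tissues gave 3, the same genes. After group means were taken off, libraries of equal number in different tissues had a median r of −0.00413 over 90 pairs, 21 of them over 0.1. For unequal numbers within an exposure the median r was 0.000963 over 872 pairs. These values cannot tell whether equal numbers mark the same rat, which the labels do not state. Air and ozone libraries of a tissue share no number. Scaling to the library total moved the median of all genes by −0.13 in adrenal gland, −0.14 in adipose tissue and −0.32 in muscle, and the share of calls upward in muscle from 49.4% to 18.4%, in adipose tissue from 52.8% to 27.4%, in hypothalamus from 55.8% to 45.0%, in adrenal gland from 49.6% to 29.5% and in lung from 53.8% to 37.2%. With edgeR that share was 68.4% in hypothalamus. Depth leaves Areg and Ereg outside lung, and Btc in adrenal gland and muscle, at a few reads per library.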

Other observations

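Markers of cell types other than those described with the EGF family genes moved in some tissues. In lung, 4 of 5 neutrophil markers fell, with summed values of 703 to 895 in air and 428 to 541 in ozone. Of 5 tested macrophage markers 1 rose and 2 fell, and 1 of 4 endothelial markers fell. Among all tested lung genes 9.51% rose and 8.18% fell. None of the tested lung markers of mast cells, T and innate lymphoid cells, fibroblasts or myelin passed with limma. In liver 1 of 6 epithelial markers fell, where 4.72% of all genes fell. In adrenal gland 1 of 4 endothelial markers rose, where 9.23% of all genes rose. In adipose tissue 1 of 2 neutrophil markers fell and 1 of 4 endothelial markers rose, where 3.45% of all genes fell and 3.87% rose. In hypothalamus, where 1.41% of all genes passed, no marker of the 8 cell type lists passed. In muscle 3 of 4 tested mast cell markers, 2 of 5 macrophage markers and the 1 tested epithelial and the 1 tested lymphoid marker fell, where 22.1% of all genes fell. A single gene of a list this short carries no statement on its cell type.

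Of the genes that define each labelled tissue, 3 of 4 rose in muscle, 1 of 5 in adipose tissue, 1 of 4 in adrenal gland and 2 of 5 in lung, and none passed in liver or hypothalamus. None of them fell. Among all tested genes 21.6% rose in muscle, 3.87% in adipose tissue, 9.23% in adrenal gland and 9.51% in lung.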
